A study of Mus musculus with 18 samples.

Results

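The 8 genes described here make, degrade and bind hyaluronan. They are the synthases Has1, Has2 and Has3, the hyaluronidases Hyal1 and Hyal2, the receptor Cd44, and the binding proteins Vcan (versican) and Tnfaip6 (TSG-6). They were chosen by name, and all 8 were found among the 14521 named genes of the expression table. Hyaluronan is a long unbranched sugar polymer of the extracellular matrix, abundant in dermis and between the living cells of the epidermis. The synthases sit in the plasma membrane and extrude the chain as they build it from nucleotide sugars. Chains are cut by hyaluronidases, held at the cell surface by CD44, and organised into a matrix by versican and by TSG-6, an inflammation-induced protein that moves heavy chains onto hyaluronan.

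RNA was sequenced from 3 tissues of each of 6 female littermate SKH-1E mice, an outbred hairless strain lacking the Hairless gene, numbered 2, 3, 7, 8, 9 and 10. All 6 had been exposed for months, from young adulthood, to ultraviolet light from a solar simulator, and tissue was taken after irradiation had stopped. The groups were non-lesional chronically irradiated skin (CHR), papilloma (PAP), a benign epidermal outgrowth, and cutaneous squamous cell carcinoma (SCC), with n = 6 in each. Every mouse carried the same exposure, so CHR is irradiated skin and not naive skin, and the lesions were selected by histology for a high share of tumour cells.

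Levels are given as normalised reads, that is, reads recovered from the deposited expression score and divided by the library's size factor. The libraries held 15.4 to 21.0 M recovered reads. Differences were tested with limma on log2(score + 1) with the mouse as a block and Benjamini-Hochberg adjustment over all 14521 genes, and log2 fold changes are on that scale, which compresses changes of weakly expressed genes. A gene was called at an adjusted p under 0.05. Bulk tissue cannot tell fewer cells of a type from less RNA per cell. The tissues differed in their cell type markers. Keratinocyte and fibroblast markers were present in all 18 libraries. The summed normalised reads of 6 keratinocyte markers had a median of 343533 in CHR, 595397 in PAP and 358927 in SCC. Those of 6 fibroblast markers had a median of 207666 in CHR, 54839 in PAP and 227509 in SCC. The fibroblast sum is dominated by the collagens Col1a1, Col1a2 and Col3a1. The 6 fibroblast markers did not move alike in SCC vs CHR, where their median log2 fold change was -0.78. Dcn had a mean of 18916 normalised reads in CHR and 4317 in SCC, Lum 7067 and 3736, Pdgfra 5515 and 4011, and Col1a1 21692 and 47237. The carcinoma of mouse 10 stood apart from the other carcinomas, with 17028 normalised reads of fibroblast markers against 119554 or more in the others, and 194 of 4 skeletal muscle markers against 60847 or more, so results that rest on it are also given without it.

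In PAP vs CHR, limma called Has2, Has3 and Cd44 higher and Has1, Vcan and Tnfaip6 lower. These were 3 of 8 members higher, where 23.3% of all genes were called higher, and 3 of 8 lower, where 29.3% of all genes were called lower. Only Hyal1 and Hyal2 were not called. In SCC vs CHR, Has2, Has3 and Cd44 were called higher (3 of 8, against 15.8% of all genes) and Tnfaip6 lower (1 of 8, against 22.7% of all genes). In SCC vs PAP, limma called 0 of 8 members, where 8.75% of all genes were called higher and 1.1% lower, while 4 members had an unadjusted p under 0.05 and limma-voom on recovered reads called 1. The median log2 fold change of the 8 members was 0.30 in PAP vs CHR against 0.00 over all genes, 0.11 in SCC vs CHR against -0.02, and -0.10 in SCC vs PAP against -0.02. The 3 comparisons share libraries and are not independent of each other.

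**Figure D1:**
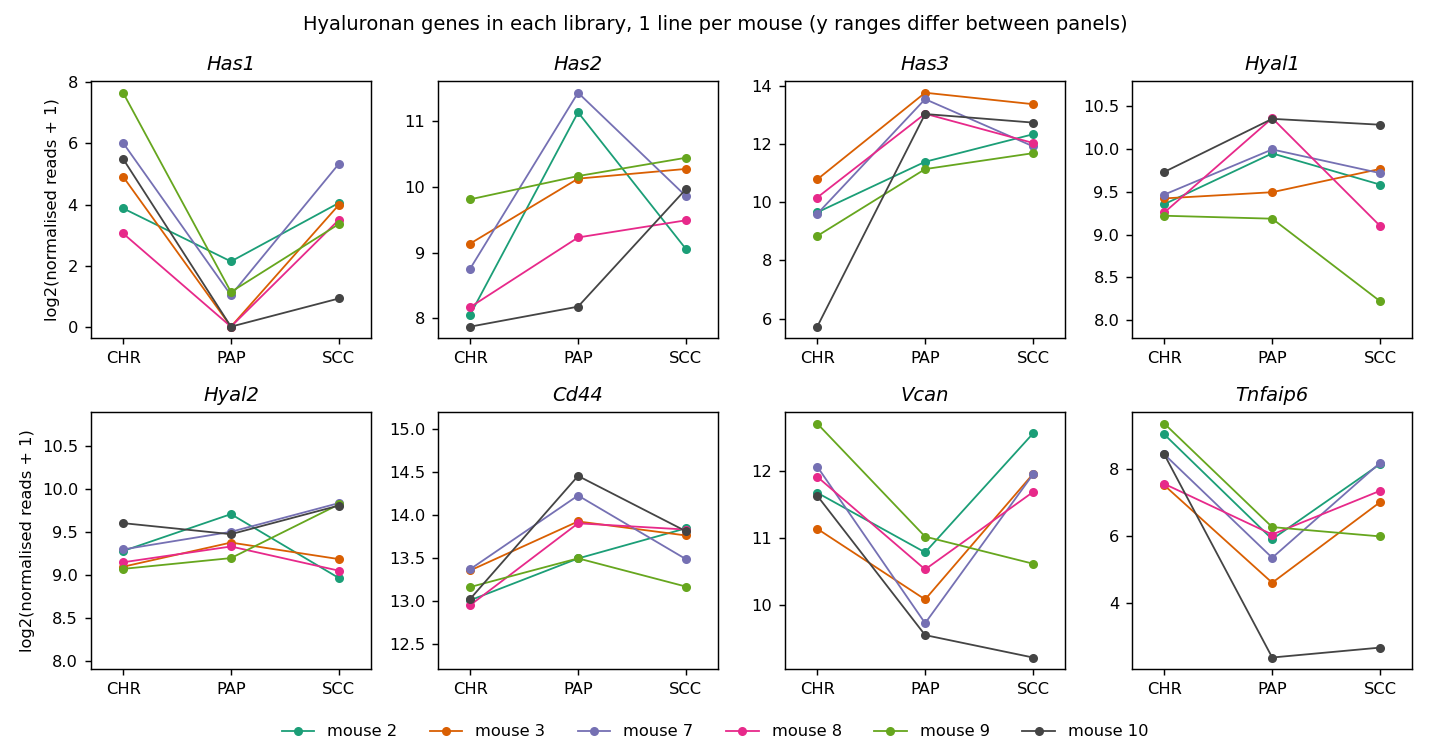
Normalised reads of each member in every library, as log2(normalised reads + 1) on the y axis, with the 3 tissues on the x axis and 1 line per mouse; y ranges differ between panels. Has3 was higher in both lesions than in CHR in 6 of 6 mice, and Has1, Vcan and Tnfaip6 were lower in PAP than in CHR in 6 of 6 mice.

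Has3 (ENSMUSG00000031910.14, chr8:106870242-106884566, plus strand, GRCm38) encodes a synthase that is expressed in keratinocytes. In CHR its normalised reads were 51.8 at the lowest, 790.2 at the median and 1766 at the highest. In PAP they were 2259, 8428 and 13948. In SCC they were 3301, 4698 and 10619. Every papilloma and every carcinoma lay above every CHR library, and the lowest value was the irradiated skin of mouse 10, which had 51.8 against 458 or more in the other 5 mice.

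The mean of Has3 was 9.54-fold higher in PAP than in CHR and 6.81-fold higher in SCC than in CHR. The log2 fold change was 3.25 ± 0.49 (SE, limma adjusted p = 0.000134) in PAP vs CHR and 2.95 ± 0.49 (adjusted p = 0.000653) in SCC vs CHR, higher in 6 of 6 mice in both. Within mice the PAP to CHR ratio ran from 3.34 to 162, with a median of 7.64, and the highest ratio was that of mouse 10. Between the lesions the groups overlapped, and SCC vs PAP gave a log2 fold change of -0.30, with a 95% interval from -1.37 to 0.77 (adjusted p = 0.763). That value was -0.60 without the carcinoma of mouse 10 and ran from -0.55 (without mouse 2) to -0.04 (without mouse 7) when 1 mouse was left out, with no call. With mouse 10 left out, the log2 fold change against CHR was 2.67 for papilloma and 2.36 for carcinoma, and both calls held. The exons of Has3 share 352 bases (5.52%) with Chtf8 on the opposite strand, and the strand setting of the counting is not given in the sources used here.

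Has2 (ENSMUSG00000022367.7, chr15:56665627-56694539, minus strand) encodes the synthase required for embryonic heart development and is strongly used by fibroblasts. Its normalised reads in CHR were 233 at the lowest, 359 at the median and 898 at the highest. In PAP they were 288, 1132 and 2768, and in SCC 531, 964 and 1393. The 3 groups overlapped, but within each of the 6 mice both lesions were above CHR.

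The mean of Has2 was 3.05-fold higher in PAP than in CHR and 2.17-fold higher in SCC than in CHR. The log2 fold change was 1.27 ± 0.37 (SE, limma adjusted p = 0.0106) in PAP vs CHR and 1.07 ± 0.37 (adjusted p = 0.0350) in SCC vs CHR. The second call was lost without the mouse block (adjusted p = 0.0534), without mouse 3, 8, 9 or 10 (adjusted p from 0.0578 to 0.0867), and without the carcinoma of mouse 10 alone (0.82, adjusted p = 0.0915) or its irradiated skin alone (adjusted p = 0.0578). SCC vs PAP differed by -0.21, with an interval from -0.997 to 0.585 (adjusted p = 0.785), and 4 of 6 mice were higher in SCC. The exons of Has2 share 182 bases (4.30%) with the antisense gene Has2os.

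Has1 (ENSMUSG00000003665.7, chr17:17843323-17855205, minus strand) was the weakest synthase by reads. In CHR it had 7.31 normalised reads at the lowest, 36.7 at the median and 202 at the highest. In PAP it had 0, 0.521 and 3.40, from 6 reads in all, and 3 of 6 papillomas had 0 reads, a count that allows up to 3. In SCC it had 0.896, 12.6 and 39.3. All papillomas lay below all CHR libraries, while SCC overlapped both.

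The log2 fold change of Has1 was -1.28 ± 0.26 (SE, limma adjusted p = 0.00107) in PAP vs CHR, lower in 6 of 6 mice. Its size depended on the scale and ran from -5.14 to -0.83 over the alternatives, with the call kept in each. SCC vs CHR gave -0.63 (adjusted p = 0.0662), lower in 4 of 6 mice, -0.34 (adjusted p = 0.212) without mouse 9, and -0.77 without mouse 2, when it was called (adjusted p = 0.0452). Has1 was higher in SCC than in the papilloma of the same mouse in 6 of 6 mice, by 0.64 ± 0.26 (SE) in the log2 fit (limma adjusted p = 0.135). On log2(normalised reads + 1) that difference was 2.81 (adjusted p = 0.0257), and in limma-voom 3.32 (adjusted p = 0.0300).

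Levels of the synthases were compared per kilobase of exon. The summed level of the 3 synthases was 249 ± 117 normalised reads per kb (SD, n = 6) in CHR, 1568 ± 776 in PAP and 1121 ± 449 in SCC. The highest CHR library had 416 per kb, below the lowest papilloma at 625 and the lowest carcinoma at 833. Has3 had the highest level per kb among the 3 in 4 of 6 CHR libraries, 5 of 6 PAP libraries and 6 of 6 SCC libraries, and Has2 had it in the others.

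The share of Has3 in the synthase total per kb had a median of 58.5% in CHR, with a range from 11.1% to 72.2%. It was 81.7% in PAP, from 44.2% to 95.1%, and 80.7% in SCC, from 61.01% to 86.3%, so the ranges overlapped. The share of Has1 had a median of 3.77% in CHR, 0.00456% in PAP and 0.258% in SCC. Mice differed in composition within a tissue. The papilloma of mouse 2 had 55.7% Has2, and that of mouse 10 had 4.92%. These shares are a description of the levels given above and have no test of their own.

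**Figure D2:**
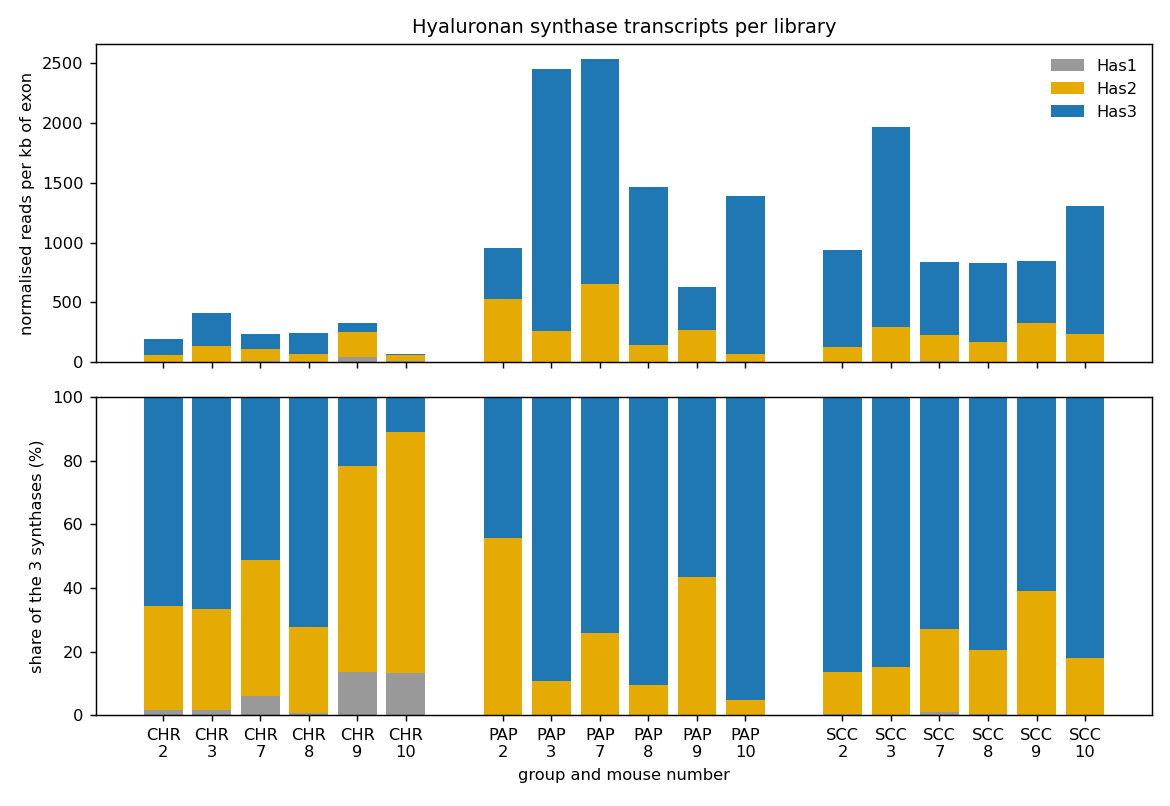
Synthase transcripts in each library: the upper bars give normalised reads per kb of exon for Has1, Has2 and Has3 stacked, and the lower bars give the percent of each in their sum, with libraries on the x axis by group and mouse number. The summed level was at least 625 per kb in every lesion and at most 416 per kb in CHR, and Has3 made up most of it in 11 of 12 lesions.

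Hyal1 (ENSMUSG00000010051.15, chr9:107576927-107581710, plus strand) encodes a lysosomal hyaluronidase, and Hyal2 (ENSMUSG00000010047.12, chr9:107567945-107572779, plus strand) a membrane-anchored one that starts the breakdown of long chains. Hyal1 had 595 normalised reads at the lowest, 669 at the median and 849 at the highest in CHR. It had 581, 1002 and 1311 in PAP, and 298, 803 and 1243 in SCC. The 3 groups overlapped, and the spread was wider in the lesions than in CHR.

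Hyal1 had a log2 fold change of 0.44 ± 0.18 (SE, limma adjusted p = 0.0531) in PAP vs CHR, with 5 of 6 mice higher. That difference was called by limma-voom (adjusted p = 0.0452), after quantile normalisation (0.0300), with only the 2 groups in the fit (0.0344), and without mouse 3 (0.0447) or mouse 9 (0.0198). It stayed uncalled in the other alternatives. The limma adjusted p was 0.141 without the mouse block and from 0.110 to 0.161 without mouse 2, 7, 8 or 10. Without the irradiated skin of mouse 10 it was 0.126. SCC vs CHR differed by 0.05, with an interval from -0.34 to 0.43. The counts of Hyal1 are uncertain, because 50.8% of its exon bases lie in Naa80 on the same strand, listed in the table under the older symbol Nat6, and 4.21% in Hyal3.

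Hyal2 varied least. Its normalised reads were 537 at the lowest, 594 at the median and 778 at the highest in CHR, 586, 688 and 836 in PAP, and 499, 739 and 915 in SCC. The 3 groups overlapped. The 95% intervals of its log2 fold changes ran from -0.14 to 0.47 in PAP vs CHR (adjusted p = 0.354), from -0.13 to 0.49 in SCC vs CHR (adjusted p = 0.344) and from -0.29 to 0.32 in SCC vs PAP (adjusted p = 0.962).

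Cd44 (ENSMUSG00000005087.17, chr2:102811141-102901665, minus strand) encodes the main cell surface receptor for hyaluronan, carried by keratinocytes and leukocytes alike. It had 7906 normalised reads at the lowest, 8734 at the median and 10573 at the highest in CHR. In PAP it had 11531, 15438 and 22471, and in SCC 9188, 14129.9 and 14711. Papillomas lay above all CHR libraries, and carcinomas overlapped both groups.

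For Cd44 the log2 fold change was 0.77 ± 0.16 (SE, limma adjusted p = 0.00121) in PAP vs CHR and 0.50 ± 0.16 (adjusted p = 0.0225) in SCC vs CHR, higher in 6 of 6 mice in both. The ratio of means was 1.75 and 1.43. The call in SCC vs CHR was lost without mouse 2, 3 or 8 (adjusted p from 0.0524 to 0.0926) and without the irradiated skin of mouse 10 (adjusted p = 0.0662). SCC vs PAP gave -0.27, with an interval from -0.60 to 0.07. Beside it, 4 of 6 keratinocyte markers were called higher and 1 lower in PAP vs CHR, 0 higher and 2 lower in SCC vs PAP, and 4 higher and 2 lower in SCC vs CHR, and their summed reads ran from 286802 to 643846 in CHR, from 398369 to 847574 in PAP and from 125335 to 565224 in SCC. In PAP vs CHR the largest called log2 fold changes were those of Dsg3 (2.19), Krt14 (1.76) and Krt10 (-1.75), in SCC vs CHR those of Krt1 (-3.03), Krt10 (-2.66) and Dsg3 (1.44), and in SCC vs PAP those of Krt5 (-0.88) and Dsg3 (-0.74). The part of keratinocyte content in the Cd44 and Has3 differences was not tested.

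Vcan (ENSMUSG00000021614.16, chr13:89655312-89742509, minus strand) encodes versican, a large chondroitin sulphate proteoglycan whose end domain binds hyaluronan. Its normalised reads in CHR were 2248 at the lowest, 3556 at the median and 6668 at the highest. In PAP they were 749, 1279.9 and 2073, and in SCC 594, 3616 and 6020. All papillomas lay below all CHR libraries, and the carcinomas overlapped both, with mouse 10 lowest and mouse 2 highest.

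The log2 fold change of Vcan was -1.51 ± 0.38 (SE, limma adjusted p = 0.00529) in PAP vs CHR, lower in 6 of 6 mice, and the mean in CHR was 2.94-fold that in PAP. SCC vs CHR gave -0.50, with an interval from -1.33 to 0.33 (adjusted p = 0.329), and -0.19 without the carcinoma of mouse 10, -0.14 without mouse 10 and -0.19 without mouse 9. SCC vs PAP gave 1.01 ± 0.38 (adjusted p = 0.119), with 4 of 6 mice higher. Without the carcinoma of mouse 10 it was 1.32 (adjusted p = 0.0246).

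Tnfaip6 (ENSMUSG00000053475.5, chr2:52038009-52056686, plus strand) was the member with the largest fall in PAP vs CHR on the score scale, and it encodes TSG-6, which is induced by inflammatory signals. On log2(normalised reads + 1) and in limma-voom the fall of Has1 was larger. Tnfaip6 had normalised reads in CHR of 180.1 at the lowest, 341 at the median and 646 at the highest. In PAP they were 4.20, 49.1 and 75.5, and in SCC 5.37, 144 and 287. All papillomas lay below all CHR libraries, and in mouse 10 both lesions were at the bottom of their groups.

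The mean of Tnfaip6 in CHR was 8.31-fold that in PAP and 2.40-fold that in SCC. The log2 fold change was -2.01 ± 0.34 (SE, limma adjusted p = 0.000283) in PAP vs CHR and -1.13 ± 0.34 (adjusted p = 0.0181) in SCC vs CHR, lower in 6 of 6 mice in both. The second call was lost without mouse 9 (adjusted p = 0.0828) or mouse 10 (0.0697) and with only the 2 groups in the fit (0.0572). Without the carcinoma of mouse 10 alone it was -0.88 (adjusted p = 0.0468), and without its irradiated skin alone -0.87 (adjusted p = 0.04996). Within mice the SCC to CHR ratio had a median of 0.623. It was 0.0158 in mouse 10, 0.0963 in mouse 9 and from 0.542 to 0.866 in the others. SCC vs PAP gave 0.88 ± 0.34 (adjusted p = 0.122), with 5 of 6 mice higher, and 1.13 (adjusted p = 0.0313) without the carcinoma of mouse 10.

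Fibroblast markers fell in PAP vs CHR, as both binding proteins did. The median of their summed reads, which the collagens dominate, was 207666 in CHR and 227509 in SCC. In SCC vs CHR both Tnfaip6 and the fibroblast marker Dcn were called lower. Of 6 fibroblast markers, 5 were called lower in PAP vs CHR, 2 higher in SCC vs PAP and 1 lower in SCC vs CHR. Over all genes 29.3% were called lower in PAP vs CHR, 8.75% higher in SCC vs PAP and 22.7% lower in SCC vs CHR. None of the 6 was at 0 in any library. The called markers with the largest differences in PAP vs CHR were Dcn (-5.51), Pdgfra (-3.38) and Lum (-2.83), and Dcn (2.73) and Pdgfra (2.52) were those called in SCC vs PAP, all as log2 fold changes. Dcn (-2.78) was the one called in SCC vs CHR. Their summed normalised reads ran from 132864 to 298851 in CHR, from 4776 to 160352 in PAP and from 17028 to 492900 in SCC. The papilloma and the carcinoma of mouse 10 had the lowest sums of their groups, 4776 and 17028, and they were also the lowest in Vcan and Tnfaip6. The papilloma of mouse 9 had a sum of 160352, above those of the CHR of mouse 2 (132864) and mouse 10 (151385). Its Vcan was 2073 normalised reads against 3263 and 3164 in those libraries, and its Tnfaip6 75.5 against 516 and 341. That sum mostly reflects collagens, and other fibroblast markers were far lower in papillomas. Dcn had a mean of 565 normalised reads in PAP against 18916 in CHR, and Pdgfra 659 against 5515. Macrophage markers fell in PAP as well: 5 of 5 were called lower in PAP vs CHR, 5 of 5 higher in SCC vs PAP and 4 of 5 lower in SCC vs CHR. They were led in log2 fold change by Mrc1 (-4.15), Cd68 (-3.04) and Adgre1 (-3.001) in PAP vs CHR, by Mrc1 (-1.999), Cd68 (-1.95) and Adgre1 (-1.58) in SCC vs CHR, and by Mrc1 (2.15), C1qa (1.68) and Csf1r (1.44) in SCC vs PAP. The part of fibroblast or macrophage content in the Vcan and Tnfaip6 differences was not tested.

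**Figure D3:**
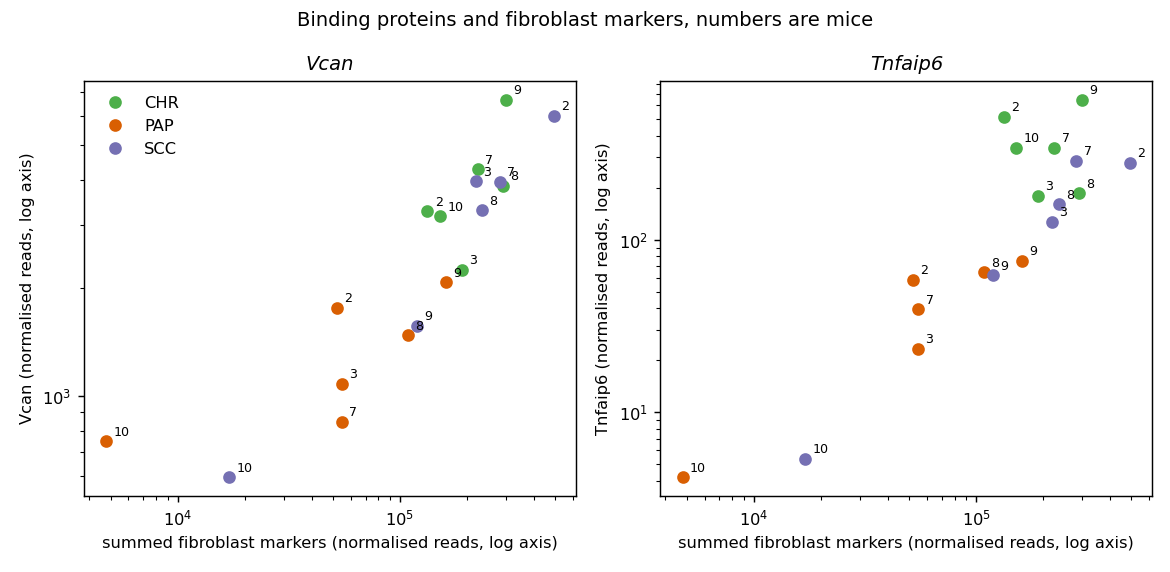
Vcan (left) and Tnfaip6 (right) in normalised reads on the y axes against the summed normalised reads of 6 fibroblast markers on the x axes, all on log scales, 1 point per library, coloured by tissue and numbered by mouse. The lesions of mouse 10, with sums of 4776 and 17028, sit at the lower left of both panels, and the CHR libraries and most carcinomas sit at the upper right.

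**Figure D4:**
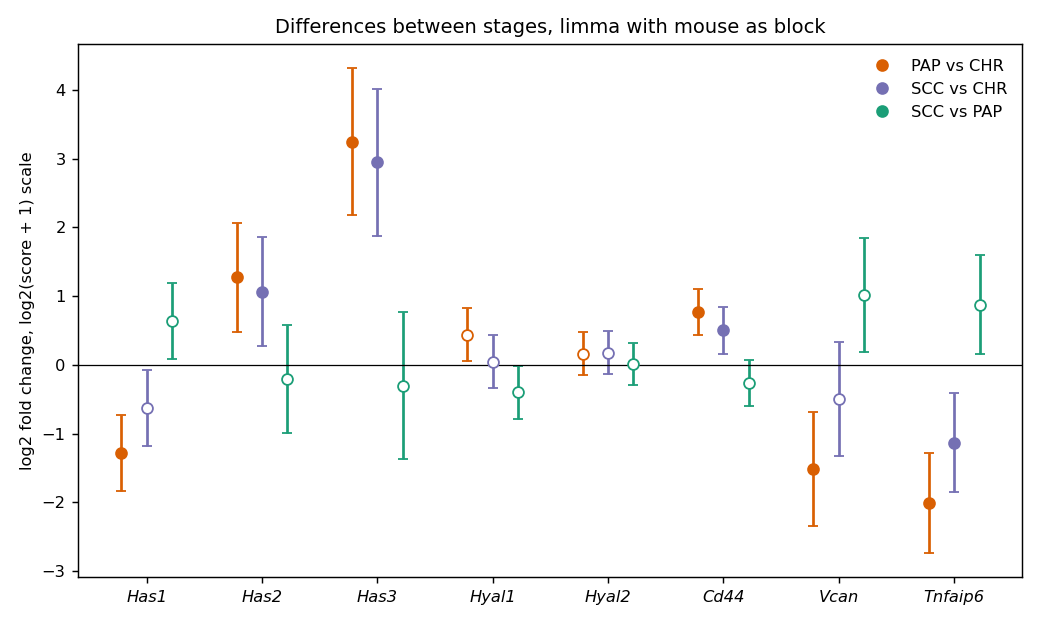
Log2 fold changes of the 8 members in 3 comparisons on the log2(score + 1) scale (y axis), from limma with the mouse as a block; bars are 95% intervals and filled points passed an adjusted p of 0.05. The points of Has3 lie at 3.25 and 2.95 against CHR, those of Hyal2 lie between 0.01 and 0.18, and no SCC vs PAP point is filled.

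Among the 8, Cd44 had the highest level per kb of exon in each tissue, at 1344 ± 173 normalised reads per kb (SD, n = 6) in CHR, 2351 ± 635 in PAP and 1923 ± 329 in SCC. In CHR it was followed by Vcan at 270.4 ± 105, Tnfaip6 at 215 ± 108, Hyal2 at 186 ± 27.1, Hyal1 at 181 ± 24.2, Has3 at 131 ± 92.0, Has2 at 105 ± 59.8 and Has1 at 13.3 ± 16.0. Only Cd44 and Vcan, and Has2 and Has1, were neighbours whose mean ± SD did not overlap.

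In PAP the order was Cd44, then Has3 at 1247 ± 744, Has2 at 321 ± 227, Hyal1 at 261 ± 78.7, Hyal2 at 211 ± 26.0, Vcan at 92.1 ± 36.5, Tnfaip6 at 25.9 ± 15.8 and Has1 at 0.208 ± 0.293. The first 5 overlapped with their neighbours, and the steps from Hyal2 downwards did not. In SCC Cd44 was followed by Has3 at 889.5 ± 426, Has2 at 228 ± 75.3, Vcan at 223 ± 133, Hyal2 at 219 ± 61.9, Hyal1 at 201 ± 84.6, Tnfaip6 at 89.8 ± 66.6 and Has1 at 3.33 ± 2.88. Cd44, Has3 and Has2 were apart from each other there, as were Tnfaip6 and Has1, and the remaining neighbours overlapped. Has3 stood at rank 6 in CHR and rank 2 in both lesions, and Vcan at rank 2 in CHR, rank 6 in PAP and rank 4 in SCC. With the longest transcript in place of all exons, Hyal1 moved above Tnfaip6 in CHR and above Has2 in PAP, and Vcan, Hyal1 and Hyal2 moved above Has2 in SCC.

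The study assigned genes to progression classes with a mixed model, and the same rule was applied here as a description. Under that rule carcinoma had to differ from irradiated skin at an unadjusted p below 0.05, and an early gene also differed in papilloma, in the same direction. Has1, Has2, Has3, Cd44 and Tnfaip6 were early, 5 of 8 members, where 41.1% of all genes were early. Late genes made up 2.2% of all genes and stepwise genes 0.523%, and 0 members fell in either class. The classes do not record a later change in the opposite direction. In the same model Has1, Tnfaip6 and Vcan were higher in SCC than in PAP (mixed model unadjusted p = 0.0430, 0.0413 and 0.0411). Hyal1, Hyal2 and Vcan did not meet the rule's condition for SCC vs CHR, which does not show that their levels were equal. With adjusted p-values only Has3, Cd44 and Tnfaip6 were early.

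Within-mouse differences were also compared by an exact two-sided permutation test over the signs of the 6 mice, whose smallest possible p is 0.03125. That value was reached by Has1, Has2, Has3, Cd44, Vcan and Tnfaip6 in PAP vs CHR, by Has2, Has3, Cd44 and Tnfaip6 in SCC vs CHR and by Has1 in SCC vs PAP. Adjusted over the 24 tests it became 0.0682, so no exact test passed the threshold.

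Promoter sequence is shown for the receptor and for both binding proteins, which moved in opposite directions in PAP. RefSeq windows (GRCm38.p6) were matched for 6 of 8 members, not Has2 or Has3. The letters TGANTCA (AP-1), CCGGAA (ETS), GGGCGG (SP1) and TATAAA were searched on both strands from 250 bases before to 50 after the start, and matches are in capitals. The bases below lie upstream of the gene, given 5′ to 3′ on the gene's own strand, at chr2:102901666-102901915 (minus) for Cd44, chr13:89742513-89742762 (minus) for Vcan and chr2:52037863-52038008 (plus) for Tnfaip6.
Cd44: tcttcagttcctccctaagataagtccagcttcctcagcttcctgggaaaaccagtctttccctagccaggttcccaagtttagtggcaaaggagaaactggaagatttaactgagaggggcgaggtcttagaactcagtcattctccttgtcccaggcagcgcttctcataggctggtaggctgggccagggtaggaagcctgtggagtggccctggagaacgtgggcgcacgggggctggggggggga
Vcan: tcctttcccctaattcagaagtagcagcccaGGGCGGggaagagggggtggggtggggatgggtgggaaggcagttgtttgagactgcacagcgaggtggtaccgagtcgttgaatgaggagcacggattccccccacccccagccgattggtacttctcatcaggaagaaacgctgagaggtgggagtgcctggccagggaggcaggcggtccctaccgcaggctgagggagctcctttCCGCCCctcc
Tnfaip6: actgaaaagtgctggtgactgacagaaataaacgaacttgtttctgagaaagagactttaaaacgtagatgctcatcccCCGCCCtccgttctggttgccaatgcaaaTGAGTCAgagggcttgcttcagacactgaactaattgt
Tnfaip6 was the only member of the 6 with an AP-1 match, TGAGTCA, at bases -142 to -136 from the RefSeq start (the printed bases stop earlier, before the GENCODE start of the gene, which lies upstream of it), and such a match is held by 7.81% of 32851 promoter windows. SP1 letters were found in Tnfaip6, Vcan, Hyal1 and Hyal2 upstream of the start and in Cd44 just after it, and 35.7% of all windows hold them. CCGGAA, in 14.9% of windows, and TATAAA, in 13.6%, matched none of the 6. A match in these letters is a description of the window only.

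Other genes of the pathway were counted from lists. Among 9 genes that make the nucleotide sugar precursors, 0 were called higher and 3 lower in PAP vs CHR, 0 and 3 for carcinoma against CHR, and 0 in SCC vs PAP. Over all genes 29.3% were lower in papilloma than in CHR and 22.7% in carcinoma, so 3 of 9 is near the background. The genes called lower in PAP were Gfpt2, an isoform of the first enzyme of hexosamine synthesis (-2.03 ± 0.41, SE, limma adjusted p = 0.00109), Uap1l1 (-1.15 ± 0.27, 0.00350) and Ugp2, which makes UDP-glucose (-0.37 ± 0.11, 0.0113). In SCC vs CHR they were Uap1l1, Ugp2 and Nagk, a salvage kinase for N-acetylglucosamine. Ugdh, which makes the UDP-glucuronate of the chain and is named here for that role after its values were seen, had 0.25 ± 0.15 in PAP vs CHR (adjusted p = 0.174). The median log2 fold change of the list against CHR was 0.08 for papilloma and 0.17 for carcinoma, against 0.00 and -0.02 over all genes.

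Of 8 other degradation genes 6 were measured, and 1 was called higher and 4 lower in PAP vs CHR as in SCC vs CHR. Over all genes 23.3% were higher and 29.3% lower in papilloma than in CHR, and 15.8% and 22.7% in carcinoma. The median log2 fold change of the list was -1.09 in both comparisons, against 0.00 and -0.02 over all genes. Cemip, a hyaluronan-binding protein needed for depolymerisation outside the lysosome, was higher, with 859 ± 468 normalised reads (SD, n = 6) in CHR, 2717 ± 682 in PAP and 2656 ± 731 in SCC. Cemip had a log2 fold change of 1.77 ± 0.32 (SE, limma adjusted p = 0.000552) in PAP vs CHR and 1.73 ± 0.32 (adjusted p = 0.00127) in SCC vs CHR. The lysosomal exoglycosidases that finish the fragments were lower in PAP, Hexa by -2.78 ± 0.31 and Gusb by -2.01 ± 0.25 on the log2 scale. Hyal4, a further hyaluronidase family member, was lower by -1.14 ± 0.28 in PAP vs CHR (limma adjusted p = 0.00466) and by -1.40 ± 0.28 in SCC vs CHR (limma adjusted p = 0.00220). Hexa was the single gene of the list called in SCC vs PAP, where it was higher by 1.29 ± 0.31 (adjusted p = 0.0239) and 8.75% of all genes were called higher. Without mouse 7, without mouse 8 or with only the 2 groups in the fit, 0 of 14521 genes were called in SCC vs PAP, so every call named in that comparison, those of Hexa, Ptx3, Mmp14 and the cell type markers, was lost in those 3 fits. Summed macrophage markers ran from 22590 to 35015 normalised reads in CHR, from 1036 to 4896 in PAP and from 3412 to 32951 in SCC, and their part in these differences was not tested.

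Of 19 other hyaluronan-binding genes 10 were measured, and 1 was called higher and 6 lower in PAP vs CHR, 1 and 4 for carcinoma against CHR, and 1 and 0 in SCC vs PAP. The shares over all genes were 23.3% higher and 29.3% lower in PAP vs CHR, 15.8% and 22.7% against CHR in carcinoma, and 8.75% and 1.1% in SCC vs PAP. The list's median log2 fold change was -0.67 in PAP vs CHR, -0.32 in SCC vs CHR and 0.45 in SCC vs PAP, against 0.00, -0.02 and -0.02 over all genes. Hmmr, a hyaluronan-binding protein that also sits on the mitotic spindle, was higher, with 333 ± 51.4 normalised reads (SD, n = 6) in CHR, 1179 ± 155 in PAP and 939 ± 251 in SCC. Its log2 fold change was 1.62 ± 0.15 (SE, limma adjusted p = 2.52e-06) in PAP vs CHR. Itih5, which encodes a heavy chain of the family that TSG-6 transfers to hyaluronan, had 3554 ± 1167 normalised reads in CHR, 210.5 ± 127 in PAP and 553 ± 369 in SCC. It was lower by -3.78 ± 0.38 in PAP vs CHR and by -2.80 ± 0.38 in SCC vs CHR. Layn, a membrane receptor for hyaluronan, was lower by -2.13 ± 0.32 in PAP vs CHR and by -1.17 ± 0.32 in SCC vs CHR (adjusted p = 0.0128). Ptx3, a partner of TSG-6 in matrix assembly, was higher by 0.78 ± 0.22 in SCC vs PAP (adjusted p = 0.0460), a call lost in the 3 fits named above.

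Of 8 partners of CD44, which link it to the cytoskeleton, shed it or splice its transcript, 4 were called higher and 2 lower in PAP vs CHR, 3 and 0 for carcinoma against CHR, and 1 and 0 in SCC vs PAP. Beside the shares over all genes of 23.3% higher and 29.3% lower in PAP vs CHR and 8.75% higher in SCC vs PAP, 2 of 8 lower and 1 of 8 higher are near the background. In SCC vs CHR the shares over all genes were 15.8% higher and 22.7% lower. The partner list had a median log2 fold change of 0.39 in PAP vs CHR, 0.30 in SCC vs CHR and -0.17 in SCC vs PAP. Over all genes these medians were 0.00, -0.02 and -0.02. Adam10, a protease that sheds CD44, was higher by 0.88 ± 0.16 (SE, limma adjusted p = 0.000545) in PAP vs CHR and by 0.56 ± 0.16 (adjusted p = 0.0152) in SCC vs CHR. Ezr and Rdx, which tie CD44 to actin, were higher by 0.67 ± 0.14 (adjusted p = 0.00159) and 0.43 ± 0.11 (adjusted p = 0.00402) in PAP vs CHR. In SCC vs CHR they were higher by 0.40 ± 0.14 (adjusted p = 0.0390) and 0.36 ± 0.11 (adjusted p = 0.0164). Esrp2, an epithelial splicing factor, was higher by 0.67 ± 0.25 in PAP vs CHR (adjusted p = 0.0400). Mmp14, another protease that cleaves CD44, was lower by -0.68 ± 0.25 in PAP vs CHR (adjusted p = 0.0366) and higher by 0.99 ± 0.25 in SCC vs PAP (adjusted p = 0.0274), again lost in those 3 fits. The table holds 1 value per gene, so the isoforms of Cd44 were not measured.

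**Figure D5:**
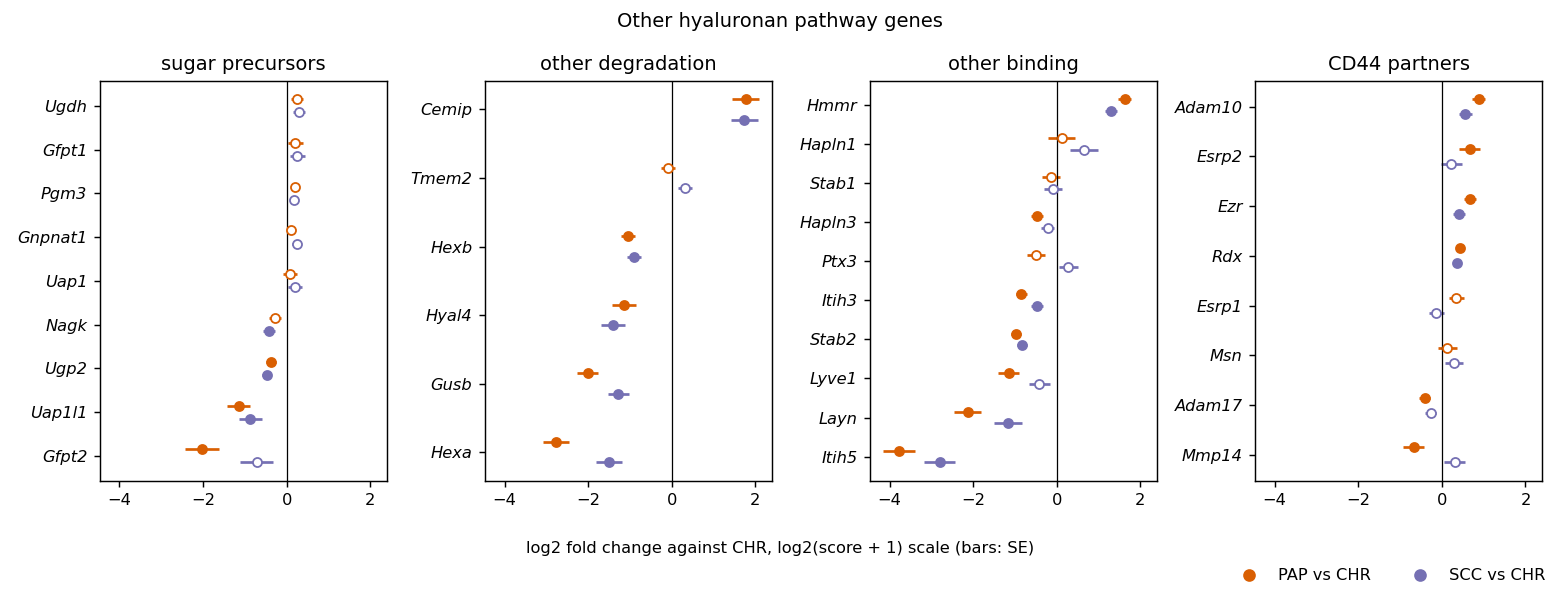
Log2 fold changes of other hyaluronan pathway genes against CHR on the log2(score + 1) scale (x axis), 1 panel per list and 1 row per gene, with bars of 1 SE and filled points at an adjusted p under 0.05. Cemip and Hmmr lie furthest to the right at 1.77 and 1.62 in PAP vs CHR, and Itih5 lies furthest to the left at -3.78.

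The genes whose log2(score + 1) followed each member most closely were found by Pearson r over the 18 libraries, which share tissues and mice, as a description. Has3 was followed by Itga6, which encodes an integrin subunit of hemidesmosomes (r = 0.923), Grlf1 (0.923) and Hif1a (0.918). Has2 was followed by Ext1, a heparan sulphate polymerase (0.857), Mesdc2 (0.832) and Prkcsh (0.821), and Has1 by H60b (0.920), Lrrc27 (0.911) and Angpt4 (0.907). Hyal1 was closest to Nat6 (0.916), the gene that overlaps it, then to Zfpm1 (0.855) and Irx5 (0.836). Hyal2 was closest to Utp20 (0.803), Bola2 (0.802) and Rab35 (0.757).

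Cd44 was closest to Dhx8 (0.897), Pum2 (0.890) and the desmosomal cadherin gene Dsg3 (0.881). The nearest genes to Vcan were Gxylt2 (0.954), Gpr173 (0.949) and Prrx2, a mesenchymal transcription factor gene (0.946). Those of Tnfaip6 were Lpar1, a lysophosphatidic acid receptor gene (0.947), Cacna2d1 (0.946) and Sytl2 (0.944). The values for Vcan and Tnfaip6 were the highest among the members, and those for Hyal2 the lowest.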

How the data were processed

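RNA was sequenced as paired-end reads from 18 libraries, grouped by the tissue and mouse number in the sample titles (n = 6 for CHR, PAP and SCC). The authors aligned mouse reads to mm10 (GRCm38), counted them per gene with HTSeq, scaled the counts and transformed them with the variance-stabilizing function of DESeq2, and the deposited score is that value on its linear scale, rounded to whole numbers, with 0 reads at 39. The methods also describe scaling the median of each experimental batch to a common value per gene, and do not say whether the deposited table carries that step. The batches of the mouse libraries are not given in the sources used here. The annotation, strand setting and software versions are not given in the sources used here. The aligner named for the human reads is MOSAIK.

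The transformation was inverted to recover reads (zero level 39.12), and 99.1% of values came out as exact whole reads (99.8% of those under 100) with 1 size factor per library. At high scores most scores match some whole read count by construction, so the share under 100 is the more informative. Depth was 15.4 to 21.0 M reads (median 18.9 M) and size factors 0.834 to 1.18. Of 14542 entries, 21 without a gene symbol (at most 0.236% of a library) were left out. limma 3.58.1 (R 4.3.3) was fitted to log2(score + 1) of 14521 genes with group and mouse as terms, with two-sided tests and a Benjamini-Hochberg threshold of 0.05. The mouse block was used because same-numbered samples come from 1 animal, as the study states. Correlations of same-numbered deviations ran from -0.245 to 0.507. Each mouse gave 1 sample per tissue, and no pair of libraries shared more than 2.24% of values. The fits were run on simulated data with far fewer changed genes than were called in PAP vs CHR. That run does not show how they perform on these data. The mixed model was checked against nlme 3.1.168.

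The members, gene lists and marker lists (keratinocyte, fibroblast, macrophage, T cell, endothelial, skeletal muscle, adipocyte) were chosen with earlier results of these data known. All members are named, and from each list up to 3 called genes with the largest log2 fold change per comparison. Gene positions are from GENCODE for GRCm38. Alternatives were another scale, pseudocount, filter, scaling, set of libraries or no block, limma-voom on recovered reads, leaving out each mouse, and, chosen after seeing the data, leaving out 3 single libraries (the irradiated skin and the carcinoma of mouse 10, the papilloma of mouse 2). Cemip and Adgre1 were matched through older symbols.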

Additional observations from a re-analysis of the deposited data

Results flagged for a closer look

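Has1 had a single high library in 2 of the 24 groups of 6 values tested (8 members in 3 tissues), and chance marks about 1 in 20 such groups. In CHR the irradiated skin of mouse 9 had 202 normalised reads, and the next highest was 63.9. In PAP the papilloma of mouse 2 had 3.40 normalised reads, and the next highest was 1.198, a difference of a few reads. In both cases the distance to the nearest library was large against the range of the group, and the cause was not tested.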

How the results depend on the processing

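The 6 calls in PAP vs CHR kept their direction and their side of the threshold under each of the 16 alternatives run. Over all member fold changes and alternatives, 345 kept direction and call, 14 lost a call, 13 gained one and 12 changed sign. In SCC vs PAP, the count over all genes was 1430, 810 without the mouse block, 0 with only the 2 groups in the fit, and from 0 to 1995 when 1 mouse was left out (471 without mouse 3, 0 without mouse 7 or 8). The count of members there was 1 by limma-voom and 1 on log2(normalised reads + 1), in both cases Has1, 2 without the carcinoma of mouse 10, and from 0 to 2 when 1 mouse was left out (1 without mouse 9, 2 without mouse 10). In SCC vs CHR, 4 members were called, 2 without the irradiated skin of mouse 10, and from 2 to 4 when 1 mouse was left out (2 without mouse 3, 8, 9 or 10). Without the mouse block 3 were called there, Has2 being lost, and the block changed no other member's call. Early members were 5, and 3 with adjusted p-values. Signs changed for values near 0. Has2 in SCC vs PAP was 0.12 without the papilloma of mouse 2 and from -0.56 to 0.14 when 1 mouse was left out. Hyal2 in SCC vs PAP was -0.0082 after quantile normalisation, -0.016 without the carcinoma of mouse 10, and from -0.10 to 0.15 when 1 mouse was left out. Hyal1 in SCC vs CHR was -0.035 without the carcinoma and -0.015 without the irradiated skin of mouse 10, and from -0.048 to 0.22 when 1 mouse was left out. The cause of these changes was not tested. Quantile normalisation moved the median of all genes in PAP vs CHR from 0.00 to 0.16 and turned 3388 higher and 4251 lower calls into 5339 and 3211, those in SCC vs CHR from 2291 and 3292 into 3667 and 2680, and those in SCC vs PAP from 1270 and 160 into 709 and 326. Relative to that shift the called members kept their directions. Depth limits Has1, with 6 reads in all papillomas, and counts carry counting error only as far as reads are independent molecules.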

Other observations

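Markers of other cell types that the lists covered also differed between tissues. All 4 T cell markers were called lower by limma in each lesion against CHR, and 0 of 4 were called in SCC vs PAP, where 3 had an unadjusted p under 0.05 and were higher in SCC, with summed normalised reads of 579 to 867 in CHR, 45.1 to 235 in PAP and 140.3 to 465 in SCC. The largest log2 fold changes were those of Cd3g (-1.60), Cd2 (-1.59) and Cd3e (-0.82) in PAP vs CHR, and -1.17, -1.14 and -0.70 for the same genes in SCC vs CHR. All 3 adipocyte markers were lower in both lesions than in CHR, where their sum ran from 1125 to 4274. In PAP vs CHR the log2 fold change was -4.69 for Cidec, -4.54 for Adipoq and -3.69 for Plin1, and in SCC vs CHR it was -3.77, -3.55 and -2.96. They were at or near 0 in many lesions, with 8 values of 0 in PAP and 5 in SCC. All 4 skeletal muscle markers were lower in both lesions, and 3 were higher in SCC than in PAP, with a median sum of 386821 in CHR, 436 in PAP and 93301 in SCC. Their log2 fold change was -8.75 for Ttn, -7.65 for Acta1 and -7.46 for Myh4 in PAP vs CHR, -4.75 for Myh4, -4.01 for Ckm and -3.27 for Ttn in SCC vs CHR, and 5.47 for Ttn, 4.61 for Acta1 and 3.02 for Ckm in SCC vs PAP. Of 3 endothelial markers, Pecam1 was lower in PAP vs CHR (-0.96) and higher in SCC vs PAP (0.87), and Cdh5 was higher in SCC vs CHR (0.68), with median sums of 3676, 2764 and 3978.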
